A study of Bos grunniens with 36 samples.

Results

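LPO, LTF, CRISP3 and CD14 are 4 genes of the antimicrobial fraction of milk, and their mRNA was followed in the yak mammary gland from late pregnancy to day +240 of lactation. They were picked by name after earlier results of the same arrays were known, and each gene stands for its probe with the highest mean over the 36 arrays. That mean chose the probe and is not tested. All 4 had a probe that passed the filter, among 20108 genes or unnamed transcripts tested, and together they have 11 of the 34997 probes in the deposited table.

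The study took about 1 g of parenchyma from the rear udder of 4 female yaks (Bos grunniens), left and right in turn. Biopsies were taken before calving, at day -30 and day -15, on the day after it (+1) and at day +15, +30, +60, +120, +180 and +240 of lactation. Each biopsy went on 1 single-colour array of a cattle design, so that each day has 4 arrays, 1 from each yak. No group received a treatment, and the labels used here give no age. Day -30 was the reference of the study.

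Milk defends both the udder and the suckling calf with proteins of the innate immune system. Lactoperoxidase (LPO) uses hydrogen peroxide to oxidise thiocyanate to an antibacterial product, and lactoferrin (LTF) binds iron and so withholds it from bacteria. CRISP3 belongs to the cysteine-rich secretory proteins and is known from neutrophil granules and exocrine secretions in humans. CD14 is the co-receptor that hands bacterial lipopolysaccharide to TLR4 and LY96, and milk holds a soluble form of it.

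Values below are on a log2 scale where 0 is about the 75th percentile of the array, and they compare 1 probe between arrays, not 1 gene with another. The days are those of the deposited table. That table and the scanner files record different days for 27 of the 36 arrays and the same day for 9, and the scanner record was not used here. In the table's record each of the 9 slides held the 4 arrays of 1 day, so slide and day cannot be told apart in any comparison. Array brightness, taken as the 75th percentile of spot signal, was 4853 to 5752 intensity units in the 8 arrays before calving and 1029 to 6450 in the 28 lactation arrays. The brightest array of day +15, +60, +180 and +240 lay below the dimmest one of day -30. Defining markers of secretory epithelium were present, and 8 of 9 listed could be tested. Their mean lay between 3.50 and 4.83 at day -30 and between 7.26 and 7.98 at day +60. The lowest array of day +120 had -0.13 and that of day +180 had -0.29. These are biopsies of mixed tissue, in which fewer cells of a type and less RNA per cell cannot be told apart.

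The probes are 60 bases long and are placed by the file headers on the cattle assembly UMD 3.1. LPO has 1 probe, at chr19:9471396-9471455 on the plus strand. The 5 LTF probes lie on the plus strand of chromosome 22 and begin at base 316, 989, 2067, 2169 and 2349 of the transcript. Of these, 4 are shown because LTF readings differed with position along the transcript. The first spans 3036 bases of genome for its 60 bases, and the second spans 487, so both cross an intron.
LTF from base 316, chr22:53526743-53529778: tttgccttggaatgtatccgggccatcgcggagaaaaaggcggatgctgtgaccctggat
LTF from base 989, chr22:53537593-53538079: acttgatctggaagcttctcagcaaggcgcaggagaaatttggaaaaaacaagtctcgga
LTF from base 2067, chr22:53554144-53554202: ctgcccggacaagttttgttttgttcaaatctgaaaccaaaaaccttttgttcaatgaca
LTF from base 2169, chr22:53554246-53554305: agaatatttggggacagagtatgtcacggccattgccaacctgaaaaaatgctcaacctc

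The probe from base 2169 had the highest mean and stands for LTF. CRISP3 is read on the minus strand of chromosome 23 by a probe at chr23:22162771-22162830 and a second one from base 607. CD14 is read on the minus strand of chromosome 7 by a probe at chr7:53446116-53446175 and by others from base 727 and 1215. The second CRISP3 probe and 1 of the further CD14 probes are shown because they served as a check of the first.
CRISP3 from base 607, chr23:22166668-22167273: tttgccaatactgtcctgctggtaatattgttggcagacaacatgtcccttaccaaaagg
CD14 from base 727, chr7:53448109-53448168: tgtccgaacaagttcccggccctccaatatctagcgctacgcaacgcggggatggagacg

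LPO stepped up at calving and stayed high in most lactation biopsies. At day -30 the 4 yaks, in order of their number, had levels of -5.49, -5.36, -4.65 and -6.31, and at day -15 they had -6.88, -4.10, -6.78 and -4.86. At day +1 the levels were 0.78, 0.41, 1.30 and 3.47, above every array before calving. At day +15 they were 2.91, 4.33, 3.61 and 4.66. The highest mean came at day +60, with 3.68, 4.89, 4.69 and 4.48. From day +30 on, 4 single biopsies were low while the others stayed high. At day +30 the yaks had 3.52, 2.94, -2.43 and 3.91, and at day +120 they had 2.54, 4.88, 3.76 and -6.91. At day +180 the levels were 1.29, 3.83, 4.63 and -5.58, and at day +240 they were -4.11, 4.32, 4.77 and 3.195. The low arrays are those of yak 3 at day +30, yak 4 at day +120 and +180, and yak 1 at day +240. The last 3 lay in or below the range of the 8 arrays before calving, and the first lay between it and the other lactation arrays. The probe was well above background on 34 arrays, the exceptions being yak 3 at day -15 and yak 4 at day +120.

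**Figure D1:**
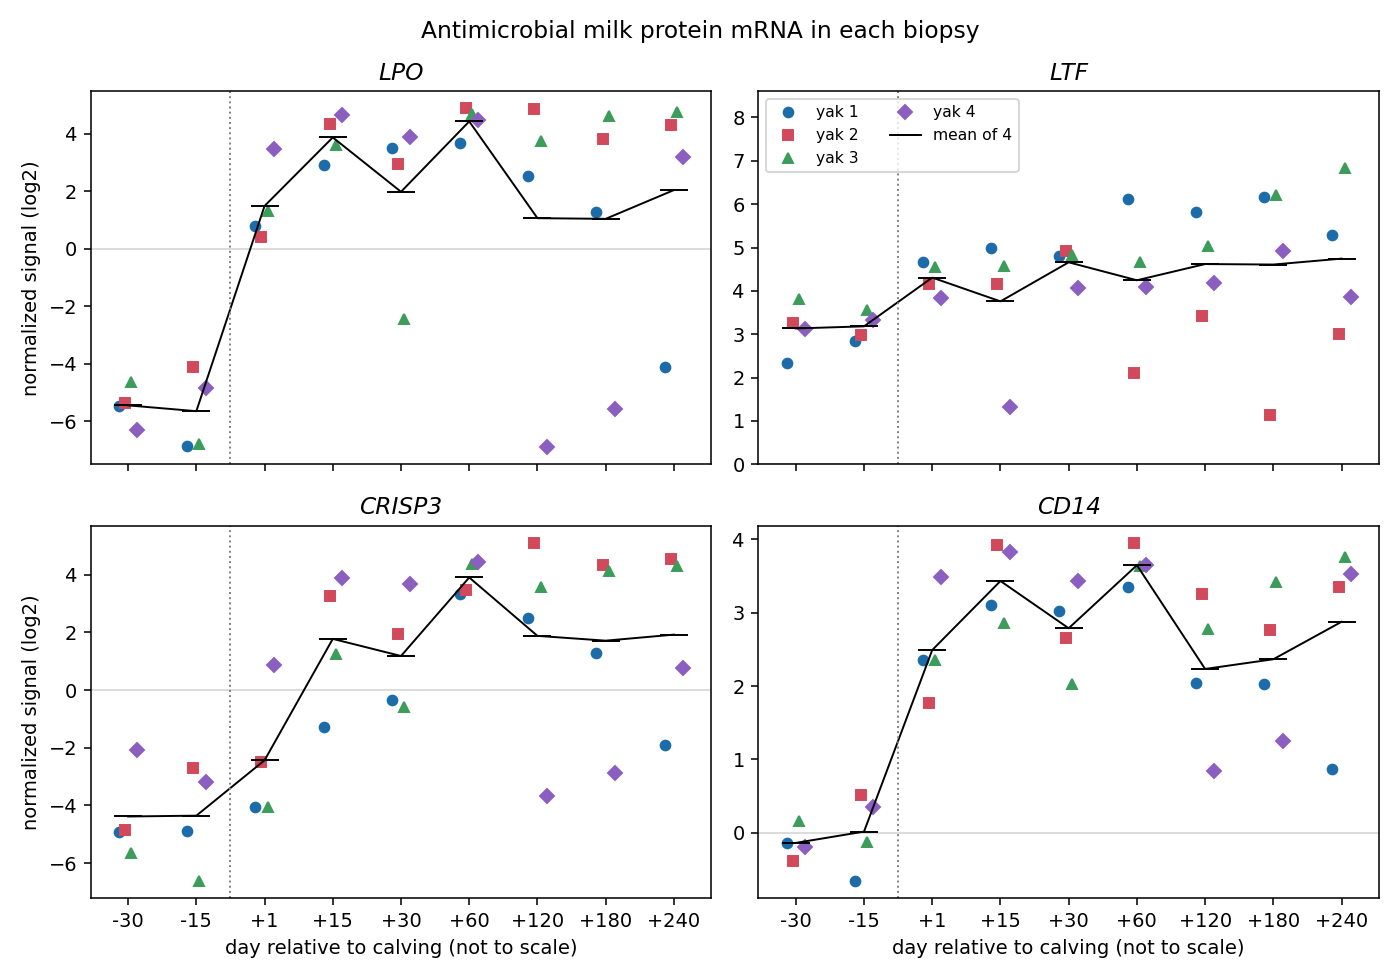
Normalized signal (log2) of LPO, LTF, CRISP3 and CD14 in each of the 36 biopsies by day relative to calving, with 1 symbol for each yak and a black line through the mean of 4. LPO, CRISP3 and CD14 lie low before calving (left of the dotted line) and high in most lactation biopsies, whereas LTF spreads from 1.14 to 6.21 at day +180.

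Against day -30, LPO had the highest change of all 20108 genes at day +1, +15, +30 and +240, the second highest at day +60 and +180 and the third at day +120. The change was 6.94 ± 1.98 (SE, 4 yaks a day) at day +1, or 123-fold (limma, adjusted p = 0.0321). It was 9.33 at day +15 (643-fold, limma adjusted p = 0.00371) and 9.89 at day +60 (946-fold, limma adjusted p = 0.000716). It passed as well at day +30 (7.44), day +180 (6.49) and day +240 (7.50), with limma adjusted p of 0.0241, 0.0227 and 0.0140. At day +120 a difference of 6.52 missed the threshold of 0.05 (limma adjusted p = 0.0588). Without the 2 arrays lowest in milk protein mRNA, both from yak 4, it was 9.28 and passed (limma adjusted p = 8.54e-05). These 2 arrays also had the lowest LPO of lactation (-6.91 and -5.58). A larger difference without them was thus fixed in advance and is no further support. The step from day -15 to day +1 was 7.15 and was also just above the threshold (limma adjusted p = 0.0548), although the 4 arrays of each day did not overlap. Day +15 less day +1 was 2.39 and day +240 less day +60 was -2.39, and neither passed (0.179% of all genes passed as higher in the first and 0.154% as lower in the second). Of all genes, 1.94% passed as higher than day -30 at day +1, 10.2% at day +15, 2.12% at day +30, 12.6% at day +60, 1.06% at day +120, 6.67% at day +180 and 6.86% at day +240. As lower, 4.30%, 7.71%, 4.26%, 16.7%, 2.70%, 10.8% and 7.08% passed. At day -15 none of LPO, LTF, CRISP3 and CD14 passed, and 0.00497% of all genes did in either direction. The 4 LPO arrays lay above all 4 of day -30 at day +1, +15, +30, +60 and +240, as did 7.10%, 18.0%, 5.32%, 16.3% and 7.56% of all genes, but not at day +120 and +180 (3.45% and 5.69%). From day -15 to day +1 such a separation was seen in 7.05%.

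With array brightness as a covariate the LPO difference was 2.65 at day +15, 2.90 at day +60, 2.02 at day +180 and 1.30 at day +240, and none of these passed (limma adjusted p from 0.157 to 0.597). Those are the days at which all 4 arrays were dimmer than the 4 of day -30. Brightness and day cannot be told apart there, so the lost calls do not show that LPO was unchanged. At day +1 and +30 the LPO difference with this covariate was 4.74 and 3.98 and passed (limma adjusted p = 0.00443 and 0.0219). Values with it for day +120 and for the step from day -15 to day +1 are not given here. The call at day +1 was also lost with another background correction (6.31, limma adjusted p = 0.0509) and without yak 1, 2 or 3 (7.17, 7.33 and 7.27, limma adjusted p = 0.159, 0.137 and 0.147). The calls at day +30 and +180 were lost without yak 1, 2 or 3, at values of 6.91, 7.15 and 9.18 and of 6.40, 5.59 and 5.57. The call at day +240 was lost without yak 2 or 3 (6.77 and 6.85). Leaving out yak 4, whose arrays of day +120 and +180 were low, gave 8.89 and 8.42 at those days, both passing (limma adjusted p = 0.00192 and 0.00158), and 5.999, 6.51 and 6.83 at day +1, +30 and +240, also passing. Without yak 1 the value at day +240 was 9.53 and passed.

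A second reading of lactoperoxidase came from TC430869, an unnamed transcript that the files describe as lactoperoxidase precursor. Its probe begins 12 bases beyond the end of the LPO probe, at chr19:9471468-9471527. It was well above background on all 36 arrays. Across them its level had an r of 0.996 with that of LPO, the highest of any gene. Its change was 6.26 at day +1, 9.71 at day +60 and 6.65 at day +120 (limma adjusted p = 0.0386, 0.000427 and 0.0363), so that day +120 passed here where LPO itself did not.

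CD14 stepped up at calving as well, and its differences had the smallest standard error of the 4 genes. Before calving its level lay between -0.39 and 0.15 at day -30 and between -0.67 and 0.51 at day -15. At day +1 the 4 yaks had 2.35, 1.77, 2.35 and 3.49. At day +15 they had 3.11, 3.93, 2.85 and 3.83, and at day +30 3.02, 2.66, 2.03 and 3.44. At day +60 they had 3.35, 3.96, 3.63 and 3.66, the set with the smallest spread in lactation. At day +120 the levels were 2.05, 3.25, 2.78 and 0.85, and at day +180 2.02, 2.76, 3.42 and 1.25. The lowest lactation value of any array was 0.85, in yak 4 at day +120, so that all 28 lactation arrays lay above all 8 arrays before calving. The share of all genes with that separation was not counted. At single lactation days from 3.45% (day +120) to 18.0% (day +15) of all genes lay above all 4 arrays of day -30. At day +240 yak 1 had 0.86 and the others 3.35 to 3.76.

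The change of CD14 against day -30 passed at all 7 lactation days. It was 2.63 ± 0.51 (SE, 4 yaks a day) at day +1, or 6.19-fold (limma adjusted p = 0.00251), and 3.79 at day +60, or 13.8-fold (limma adjusted p = 9.94e-06). The smallest was 2.37 at day +120 (5.18-fold, limma adjusted p = 0.00558). Those at day +15, +30, +180 and +240 were 3.57, 2.93, 2.51 and 3.02. CD14 was the only one of the 4 genes to pass between day -15 and day +1 (2.48, limma adjusted p = 0.00966), a step at which 0.512% of all genes passed as higher. That call was lost without yak 1, 2 or 3 (2.30, 2.88 and 2.47, limma adjusted p = 0.110, 0.0523 and 0.114). The call at day +120 was lost without yak 2 or 3 (1.95 and 2.29, limma adjusted p = 0.146 and 0.100). With brightness as a covariate CD14 passed at each of the 7 days, at smaller sizes, with 1.86 at day +15, 2.00 at day +60, 1.29 at day +120, 1.36 at day +180 and 1.43 at day +240.

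The further CD14 probes gave much the same course, but in both the mean of day +30 lay above that of day +240. These means were 1.26 and 0.91 for the probe from base 727 and 2.66 and 2.55 for that from base 1215. The probe from base 727 differed from day -30 by 3.54 at day +1 and 4.54 at day +60, and that from base 1215 by 3.02 and 4.01. Both passed at all 7 lactation days in the fit over all probes.

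CRISP3 rose later than LPO and CD14 in these means, although the difference in timing was not tested. Its levels at day -30 were -4.92, -4.86, -5.67 and -2.09, and at day -15 they were -4.89, -2.72, -6.64 and -3.18. At day +1 they were -4.07, -2.49, -4.06 and 0.88, and 3 of the 4 lay in the range of the 8 arrays before calving. At day +15 they were -1.28, 3.25, 1.26 and 3.88, all above day -30, as in 18.0% of all genes. At day +30 they were -0.33, 1.96, -0.59 and 3.70, again all above day -30, as in 5.32% of all genes. At day +60 they were 3.35, 3.47, 4.37 and 4.44, the set with the smallest spread of the 9 days. Late lactation held both high and low biopsies. At day +120 the yaks had 2.50, 5.12, 3.59 and -3.69, at day +180 they had 1.29, 4.35, 4.12 and -2.89, and at day +240 they had -1.91, 4.54, 4.32 and 0.75.

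The CRISP3 difference at day +1 was 1.95 ± 1.64 (SE, 4 yaks a day), with a 95% interval from -1.39 to 5.29, and did not pass (limma adjusted p = 0.537). It passed at the other 6 lactation days. The change was 6.16 at day +15 (71.7-fold, limma adjusted p = 0.0127) and 8.29 at day +60 (314-fold, limma adjusted p = 0.000610), the fifth highest of all genes. At day +30, +120, +180 and +240 it was 5.57, 6.27, 6.10 and 6.31, with limma adjusted p of 0.0384, 0.0250, 0.0102 and 0.0123. From day +1 to day +15 the mean differed by 4.21 and the gene was higher in 4 of 4 yaks, but this did not pass (limma adjusted p = 0.157). With brightness as a covariate none of the 6 calls passed, and the difference was 1.36 at day +15, 3.08 at day +30, 3.27 at day +60, 3.23 at day +120, 2.89 at day +180 and 1.85 at day +240. As for LPO, brightness and day cannot be told apart at day +15, +60, +180 and +240. The call at day +30 was lost without the animal as a block (limma adjusted p = 0.0506) and with another background correction (5.10, limma adjusted p = 0.0710), which also ended that at day +120 (5.69, limma adjusted p = 0.0518). Without yak 2 or yak 3 the calls at day +15, +30, +120, +180 and +240 were lost, with values from 4.87 to 5.91, and without yak 1 those at day +30, +120 and +180 (5.89, 5.88 and 6.07). Without yak 4 the values were higher at day +120, +180 and +240 (8.89, 8.40 and 7.47), and without yak 1 at day +15 and +240 (7.003 and 7.41), all passing. The call at day +60 was kept without any 1 yak, at 7.71 to 8.88. In a fit of only the 8 arrays compared the call at day +120 was lost (limma adjusted p = 0.0981) and the other 5 were kept. The probe from base 607 read 2.30 at day +1, not passing, and 6.68 at day +15 and 9.43 at day +60, both passing.

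**Figure D2:**
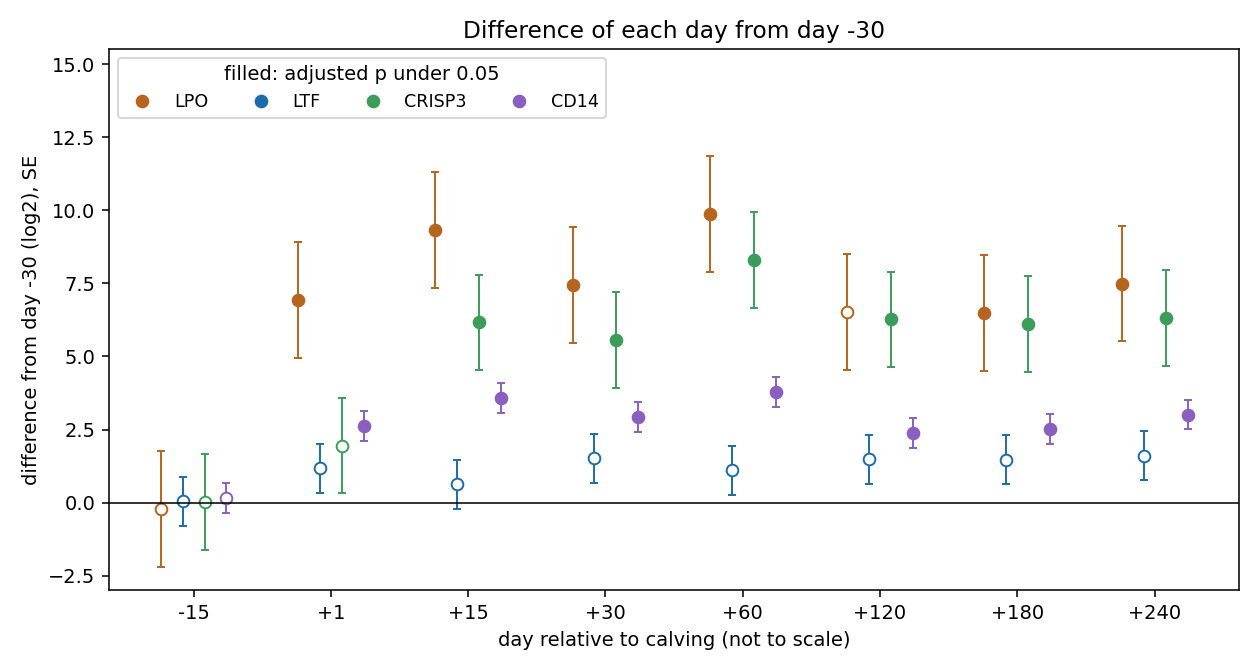
Difference of each day from day -30 (log2, y axis) for the 4 genes, with the standard error of the fit as bars. Filled points have a limma adjusted p under 0.05. CD14 is filled at all 7 lactation days, LPO at 6 and CRISP3 at 6, and LTF, at 0.62 to 1.61, at none.

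LTF lay above the 75th percentile of its array in all 36 biopsies and did not pass at any day. Before calving the 4 yaks had 2.33, 3.26, 3.82 and 3.12 at day -30 and 2.84, 2.99, 3.56 and 3.34 at day -15. At day +1 they had 4.67, 4.15, 4.56 and 3.84 and at day +30 4.81, 4.92, 4.82 and 4.07, so that at both days all 4 lay above all 4 of day -30. So did 7.10% and 5.32% of all genes, and at day +1 the gap was narrow (3.84 against 3.82). At day +15 the levels were 4.99, 4.17, 4.56 and 1.31, with yak 4 far below the others. From day +60 on the SD between yaks was 1.04 (day +120) to 2.39 (day +180), wider than at day +30 (0.39). At day +15 it had already been 1.66. The yaks had 6.11, 2.11, 4.66 and 4.10 at day +60 and 5.83, 3.43, 5.05 and 4.17 at day +120. At day +180 they had 6.17, 1.14, 6.21 and 4.91, and at day +240 5.29, 3.01, 6.83 and 3.85.

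The differences of LTF from day -30 ran from 0.62 at day +15 to 1.61 at day +240, each ± 0.84 (SE, 4 yaks a day). At day +240 the 95% interval was -0.10 to 3.32, at day +1 -0.53 to 2.88 and at day +30 -0.18 to 3.23, and the lowest limma adjusted p of the 7 days was 0.190. These intervals leave room for a change of several fold and for none. The standard deviation between yaks was 0.62 at day -30 and 0.38 at day +1 but 2.39 at day +180, and the fit uses 1 spread for all days. In a fit of only the 8 arrays compared, LTF passed at day +1 (1.17, limma adjusted p = 0.0245), day +30 (1.53, 0.0181) and against day -15 at day +1 (1.12, 0.0113). Without yak 2 it passed at day +180 (2.67, limma adjusted p = 0.0329). Over the 7 lactation days yak 1 had a mean LTF level of 5.41 ± 0.63 (SD, n = 7 days) and yak 3 5.24 ± 0.91, whereas yak 2 had 3.28 ± 1.31 and yak 4 3.75 ± 1.13. Yak 2 was the lowest of the 4 at 4 of the 7 days and yak 4 at the other 3.

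The LTF probes gave lower readings towards the 5′ end. The mean over the 36 arrays was -0.91 for the probe from base 316, 1.198 from base 989, 3.13 from base 2067, 4.14 from base 2169 and 3.88 from base 2349. Levels of different probes also differ by how well each binds, so the means are not amounts. None passed at any day against day -30, but at some days the estimates parted by position, most of all at day +30. There the difference was 4.00 ± 1.49 (SE, 4 yaks a day) at base 316, 2.93 at base 989, 1.80 at base 2067, 1.53 at base 2169 and 1.64 at base 2349. At day +15 it was between 0.46 and 0.62 for all 5. At day +60 it ran from 0.88 at base 316 to 1.11 at base 2169. The probe from base 316 was not well above background on 3 arrays, those of yak 4 at day +15 and yak 2 at day +60 and +180, so its differences at those days have only a bound in 1 of the 4 arrays.

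The distance between the first probe and the mean of the 3 probes nearest the 3′ end varied from array to array. At day +30 it was -5.17, -1.31, -0.47 and -4.31 in yaks 1 to 4. The first probe thus read nearly as high as the 3′ probes in yak 3 and far lower in yak 1. Over the 33 arrays on which the first probe was well above background the widest distance was -6.32, in yak 2 at day -15. A like distance, the first probe less the last, was taken over 3423 other transcripts with probes at least 1000 bases apart. Only probes well above background on at least 30 arrays were used for it. Its median ran from -2.82 to -1.33 over the 36 arrays. Over the 28 lactation arrays the LTF distance and that median had an r of 0.53 and a rho of 0.51 (permutation p = 0.0025 and 0.00574, adjusted over 5 relations 0.0125 and 0.0287). The r was 0.51 without the 2 arrays farthest from the median and 0.53 for deviations from the day mean. Without the 3 arrays on which the first probe was not well above background r and rho were both 0.44 (n = 25) and the relation did not pass (permutation p = 0.0215 and 0.0287, 0.107 and 0.144 after adjustment over the 5 relations). The arrays come from 4 yaks and are not independent, so these permutation p are too small. Per the labels the RNA was amplified linearly from an oligo(dT) primer. Whether RNA quality had a part in the LTF readings was not tested. The levels of the probes that stand for LPO, LTF, CRISP3 and CD14 had r between -0.11 and 0.17 with that median, none passing.

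**Figure D3:**
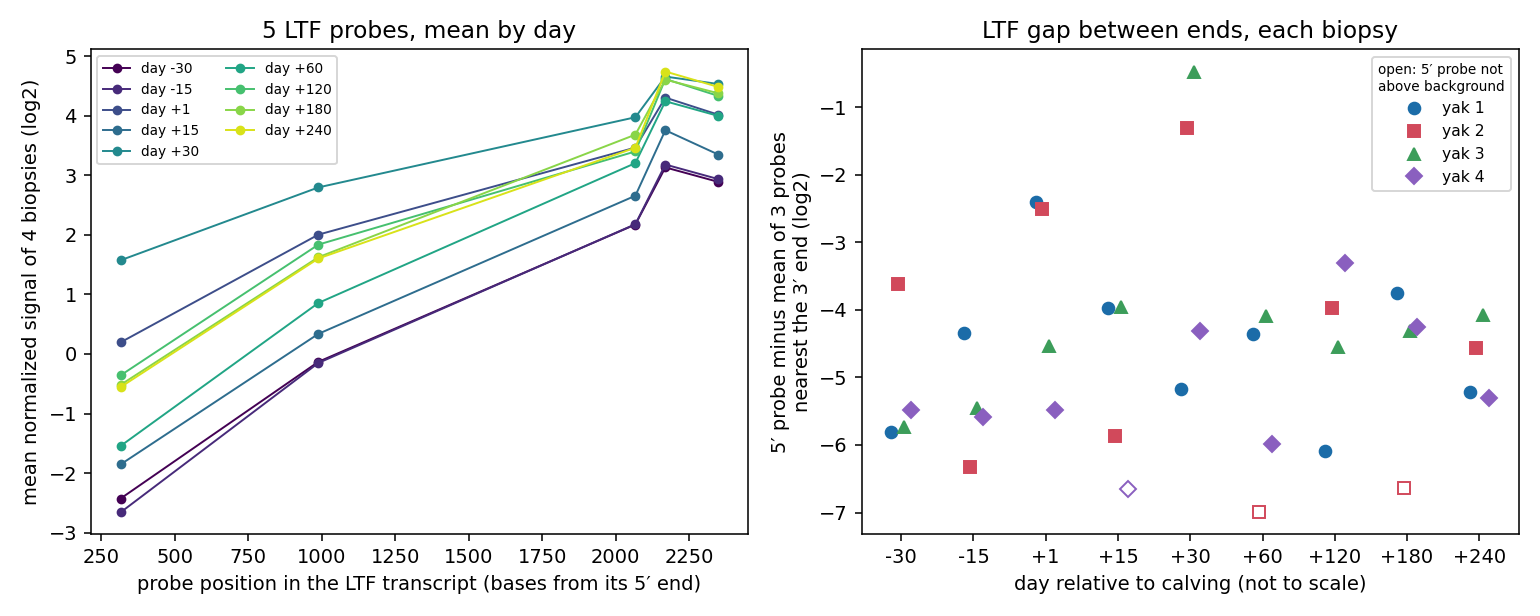
Left, mean normalized signal (log2) of 4 biopsies for each of the 5 LTF probes against the base of the transcript at which the probe begins, 1 line a day. Right, the first probe less the mean of the 3 probes nearest the 3′ end in each biopsy (log2), by day. The lines lie close together at the 3′ end and apart at the 5′ end, where day +30 is highest. Open symbols mark the 3 biopsies in which the first probe was not well above background and the value is no exact distance, and the others run from -6.32 to -0.47.

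The order of the days was much the same for the probes that stand for LPO and CD14, whose 5 highest means, from the top, fell at day +60, +15, +240, +30 and +1. For CRISP3 day +60 came first and day +240 second, and for LTF day +240 first and day +30 second. Neighbours in these orders had overlapping ranges throughout, with 1 exception, day +120 over day -15 in CD14 (a difference of 2.22 with a pooled SD of 0.83). In the F test over all 9 days CD14 (limma adjusted p = 7.53e-06), CRISP3 (0.000803) and LPO (0.000894) passed and LTF did not (0.430), against 42.3% of all genes. Only CD14 and LPO passed under each alternative in which the F test was run, and CRISP3 missed with brightness as a covariate (0.0677) and without yak 3 (0.0610).

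LPO, CRISP3 and CD14 also went together from biopsy to biopsy, and LTF did not go with them. Over the 28 lactation arrays LPO and CD14 had an r of 0.90 and a rho of 0.87, LPO and CRISP3 0.77 and 0.87, and CRISP3 and CD14 0.73 and 0.64. Their permutation p for r, adjusted over 6 pairs, lay between 6e-05 and 8e-05, where the unadjusted 2e-05 is the smallest that 100000 permutations can give. Without the 2 arrays farthest from the median r was 0.88, 0.73 and 0.77, and for deviations from the day mean 0.90, 0.88 and 0.84. Without the 4 lactation arrays lowest in milk protein mRNA it was 0.86, 0.86 and 0.60. LTF had r of -0.19 with LPO, -0.19 with CRISP3 and -0.26 with CD14, with permutation p adjusted over the 6 pairs from 0.271 to 0.339. The 28 arrays come from 4 yaks and are not independent, so these p are too small. In the 8 arrays before calving the 6 pairs had r from -0.27 to 0.81, and none passed in an exact permutation test after adjustment (LPO with CD14 highest, exact p = 0.0161, adjusted 0.0967).

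The 3 genes followed the mRNA of the major milk proteins, taken as the mean of CSN1S1, CSN2, CSN3 and LALBA. Over the 28 lactation arrays r with that mean was 0.96 for LPO, 0.84 for CD14 and 0.74 for CRISP3 (permutation p adjusted over 4 relations 3e-05 for each), and rho was 0.92, 0.80 and 0.82. Without the 2 arrays farthest from the median r was 0.94, 0.80 and 0.81, and for deviations from the day mean 0.97, 0.82 and 0.84. LTF had an r of -0.17 and a rho of -0.30, not passing (adjusted p = 0.401 and 0.128). Here too the arrays come from 4 yaks and are not independent, so the permutation p are too small. The 4 lactation arrays lowest in that mean were those of yak 4 at day +120 (-0.08) and +180 (-0.17), yak 3 at day +30 (4.03) and yak 1 at day +240 (4.17). The 8 arrays before calving had 3.61 to 5.20 and the other lactation arrays 5.19 to 8.55. In these 4 arrays LPO lay between -6.91 and -2.43, CRISP3 between -3.69 and -0.59 and CD14 between 0.85 and 2.03, but LTF between 4.17 and 5.29. Without the 4, r of LPO with the mean was 0.91, of CD14 0.77 and of CRISP3 0.79. The same 4 arrays were bright, with a 75th percentile of 3883 to 6450 intensity units. The part of brightness in these relations was not tested. Over all 36 arrays many other genes were more like LPO, CD14 and CRISP3 than were these 4 milk protein genes. By r the 4 ranked 51 to 683 for LPO, 360 to 2144 for CD14 and 160 to 1852 for CRISP3.

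**Figure D4:**
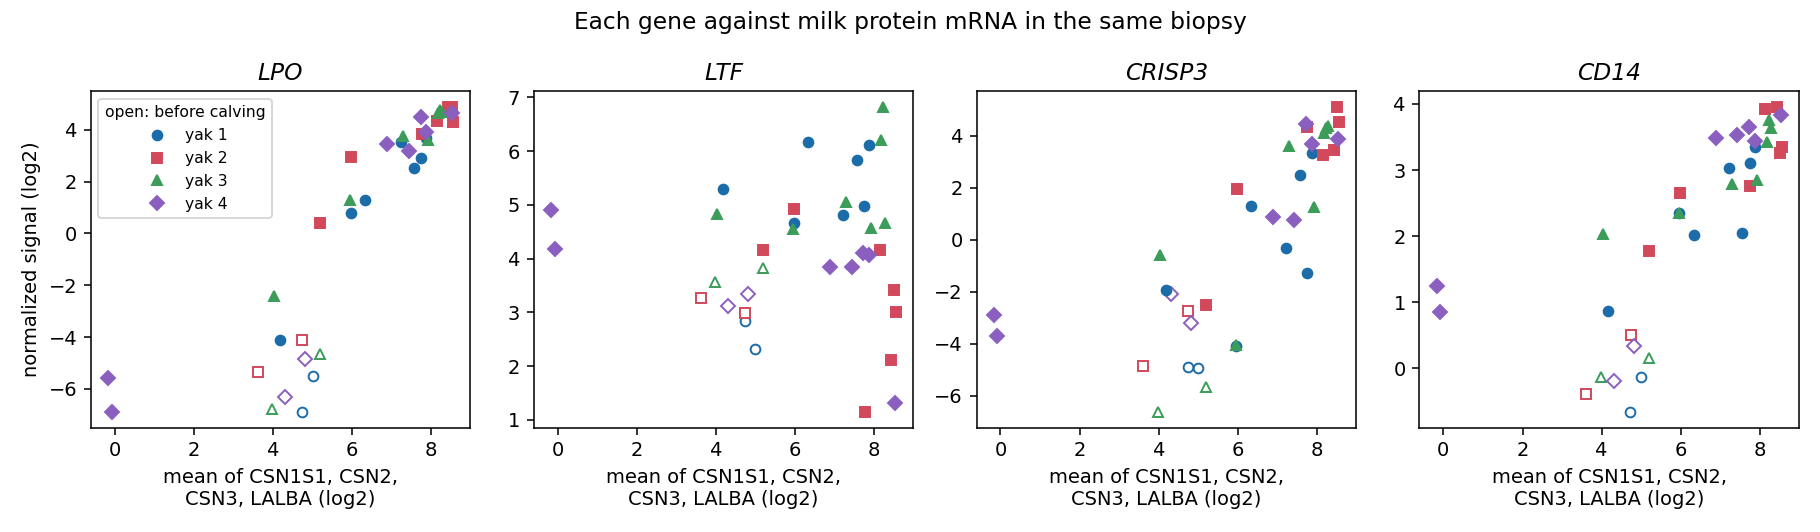
Normalized signal of each gene (log2, y axis) against the mean of CSN1S1, CSN2, CSN3 and LALBA in the same biopsy (log2, x axis), with 1 symbol for each yak and open symbols before calving. LPO, CRISP3 and CD14 climb with the milk protein mean, and LTF shows r of -0.17 over the 28 lactation biopsies.

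The 3 genes most like each one over all 36 arrays were found by Pearson's r among all genes tested, as a description. For LPO, after TC430869, they were AVPR2, a vasopressin receptor (0.967), and the unnamed TC411759 (0.966), and CD14 came next (0.955). For CD14 they were LPO (0.955), TC430869 (0.955) and GK, the glycerol kinase (0.949). For CRISP3 they were the unnamed TC412775 (0.937), CA4, a carbonic anhydrase (0.926), and the unnamed DV930325 (0.924). CRISP3 itself ranked 175 among the genes most like LPO. LTF had another set. It was most like LOC525947, described as serotransferrin-like (0.951), SAA3 (0.914) and M-SAA3.2 (0.905), 2 serum amyloid A genes of the acute phase that the mammary gland expresses. LTF and serotransferrins are relatives, and binding of 1 transcript to the probe of the other was not tested.

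LOC525947, SAA3 and M-SAA3.2 varied as LTF did and likewise passed at no day against day -30. LOC525947 ran from -1.72 to 5.09 over the arrays, with a difference of 2.46 at day +30 (limma adjusted p = 0.135). SAA3 ran from 2.86 to 6.06, with differences from day -30 of 0.11 to 0.73 at the lactation days, and M-SAA3.2 from 2.85 to 5.99. Each was lowest in yak 2 at day +180, the array lowest in LTF. SAA3 and M-SAA3.2 are close relatives, and binding of 1 transcript to the probe of the other was not tested.

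**Figure D5:**
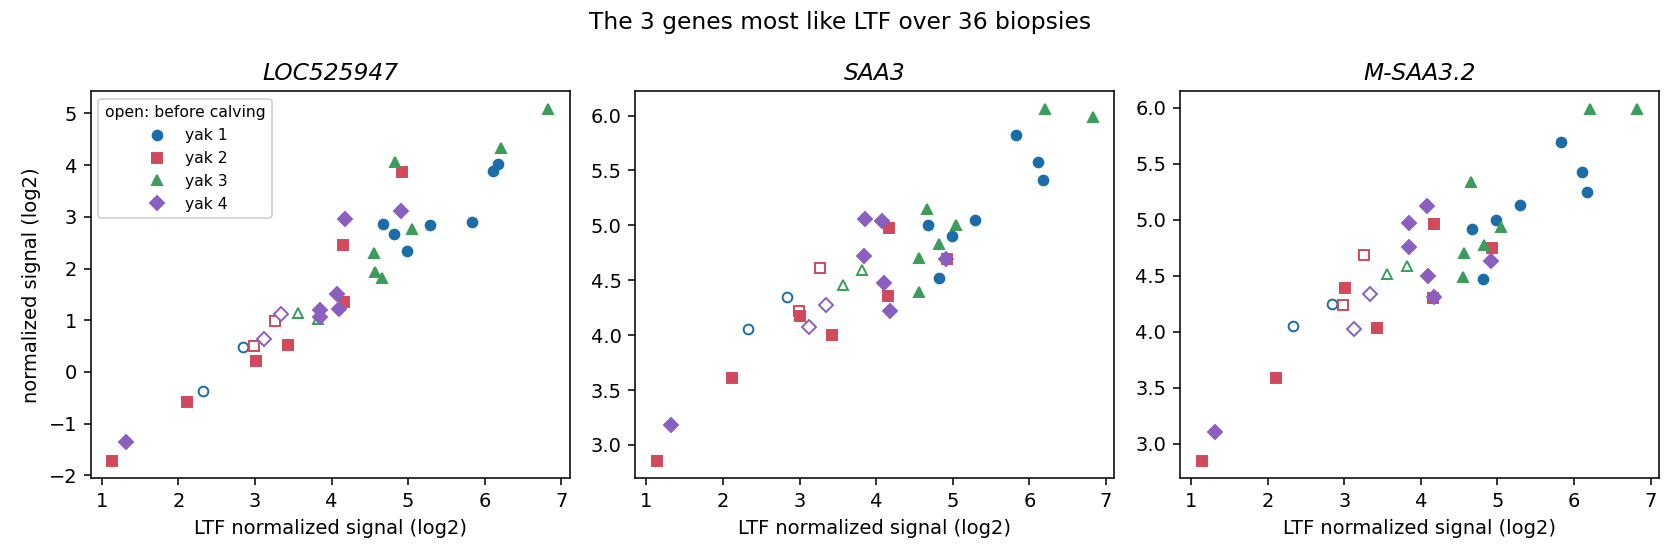
LOC525947, SAA3 and M-SAA3.2 (log2, y axes) against LTF (log2, x axis) in the 36 biopsies, 1 symbol for each yak and open symbols before calving. All 3 rise with LTF, with r of 0.951, 0.914 and 0.905, and yak 2 at day +180 is lowest in each.

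CD14 acts with other proteins of lipopolysaccharide recognition, and some of its partners were higher on the first day of lactation. Of 17 genes listed and tested, 5 rose and 0 fell at day +1, with a median difference of 0.26 against -0.06 for all genes. Beside CD14 they were LBP, which carries lipopolysaccharide to CD14 (3.19), LY96 (1.50), TLR4 (0.95) and the signalling kinase IRAK4 (0.85). At day +15, 5 rose and 0 fell, among them LBP (2.45), LY96 (1.85), TLR2 (1.29) and the adaptor MYD88 (0.67). At day +60, 5 rose and 2 fell. LY96 (1.97), TLR2 (1.11), IRAK1 (0.96) and MYD88 (0.81) were higher beside CD14, and CD180, a B cell relative of TLR4 (-2.23), and BPI, an endotoxin-binding protein (-1.93), were lower. TLR4 did not pass after day +1, with differences from 0.08 to 0.54. LBP did not pass from day +30 on, with differences from 1.08 to 2.60. At day +240, 6 rose and 2 fell, and at day +30, +120 and +180 the numbers that rose were 1, 1 and 3 with 0 that fell. Of all genes, 1.94%, 10.2%, 2.12%, 12.6%, 1.06%, 6.67% and 6.86% passed as higher from day +1 to +240 in order. As lower, 4.30%, 7.71%, 4.26%, 16.7%, 2.70%, 10.8% and 7.08% passed. A count near these shares, here or in the lists below, is no trait of its list.

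Of 14 genes of the peroxidase system 11 were tested, LPO among them. At day +1, +15, +30, +60, +120, +180 and +240, 1, 1, 1, 2, 0, 2 and 1 rose and 1, 0, 1, 3, 0, 1 and 0 fell. Of all genes, 12.6% passed as higher and 16.7% as lower at day +60, and 6.67% and 10.8% at day +180. The median difference of the list was 0.25 at day +60, 0.35 at day +180 and 0.27 at day +240, against -0.12, -0.05 and -0.01 for all genes. It lay between -0.07 and 0.12 at the other lactation days. At day +60 TXNRD1, a thioredoxin reductase, rose by 0.74 beside LPO. Among those that fell were EPX, the eosinophil peroxidase (-1.19), which was well above background on only 1 of the 4 arrays of that day, and DUOX1, an oxidase that makes hydrogen peroxide (-0.96). MPO, the neutrophil peroxidase, had differences from -0.41 to 0.49 and passed at no day, nor did DUOXA1, the partner of DUOX1 (-0.53 to 0.59), or SLC5A5, an iodide carrier that also takes up thiocyanate (-0.90 to 1.76). DUOX2, DUOXA2 and SLC26A4 were not among the genes tested.

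Among 13 tested of 16 listed genes of iron handling, it was the ferritin chains that passed most often. FTL rose by 1.36 at day +15, 1.22 at day +60, 1.42 at day +180 and 1.40 at day +240, and FTH1 by 0.96, 0.96 and 1.01 at day +15, +60 and +240. SLC11A2, an iron importer, rose at day +60 (0.97) and day +180 (0.81). No gene of the list passed at day +1, +30 or +120 and none fell at any day. Of all genes, 10.2% passed as higher at day +15, 12.6% at day +60, 6.67% at day +180 and 6.86% at day +240. TF, the plasma iron carrier, had its highest difference, 2.19, at day +30, LCN2, which binds bacterial siderophores, 1.62 at day +30, and TFRC, the transferrin receptor, 1.18 at day +30, and none of these passed.

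Of the CRISP family and its binding partners, 10 of 11 listed genes were tested. CRISP2, a close relative of CRISP3 on the same chromosome, rose at day +15 (4.93), +30 (3.90), +60 (5.33), +180 (3.42) and +240 (3.72), and like CRISP3 did not pass at day +1 (1.92). Its level had an r of 0.92 with that of CRISP3 over the 36 arrays. Its probe lies at chr23:22130996-22131055, and binding of 1 transcript to the probe of the other was not tested. CRISPLD1 fell at day +15 (-1.95), +60 (-2.75), +180 (-2.94) and +240 (-2.18), and PI15 at day +60 (-1.09) and +180 (-1.78). At day +180 both were well above background on 2 of the 4 arrays, and PI15 on 1 of 4 at day +60, so these differences are not exact. MSMB, which binds CRISP proteins in seminal plasma of humans, had a difference of 3.47 at day +15 and A1BG, a plasma protein that binds CRISP3 in humans, one of 0.05, and neither passed at any day.

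Of 37 other defence proteins of milk 33 were tested. Of these, 11 rose and 1 fell at day +15 and again at day +60. Of all genes, 10.2% and 12.6% passed as higher and 7.71% and 16.7% as lower at those days. The median differences of the list were 1.02 and 0.72. At day +60 those with the highest change were S100A8, a calgranulin (3.54), MFGE8, a protein of the milk fat globule (3.30), MUC1, a mucin of that globule (2.76), and S100A12 (2.62). At day +30, 6 rose, led by S100A8 (4.75), S100A12 (3.59), S100A9 (3.56) and the cathelicidin CATHL4 (2.80). S100A8, S100A9, S100A12 and CATHL4 are also among the neutrophil markers below. The counts of the 2 lists thus share genes and are not separate results. SPP1, osteopontin, rose at all 6 days from day +15 on (1.45 to 2.20). PGLYRP1, a bacterial peptidoglycan-binding protein, fell at all 7 lactation days, by 3.01 at day +1 and 1.88 at day +120. The lysozymes LYZ, LYZ1 and LYZ2, with differences from -0.92 to 1.57, and HP, haptoglobin, with -1.92 to 2.38, passed at no day.

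CRISP3, LTF and CD14 are also made by white blood cells, and markers of those were read beside them. Of all genes, 1.94%, 10.2%, 2.12%, 12.6%, 1.06%, 6.67% and 6.86% passed as higher from day +1 to +240 in order. As lower, 16.7% of all genes passed at day +60. Of 17 neutrophil markers listed 11 were tested, and 0 rose at day +1, 3 at day +15, 6 at day +30, 3 at day +60, 1 at day +120, 3 at day +180 and 0 at day +240, with 0 that fell. Their mean lay between -3.72 and -3.39 at day -30, between -3.12 and -2.42 at day +1, between -2.39 and 0.03 at day +30 and between -3.35 and -2.04 at day +240. CXCR2 (3.81 at day +30) was well above background on 24 of the 36 arrays, and ELANE and MPO passed at no day. At day +60, where CRISP3 was highest, the neutrophil mean was -2.85 to -1.02. Of 12 monocyte or macrophage markers 10 were tested, and 0 or 1 rose and 0 fell at each lactation day, the riser being MARCO (3.71 at day +30). Their mean lay between 0.09 and 0.53 at day -30 and between 0.53 and 0.95 at day +1, the first day on which CD14 passed. CD68 did not pass (1.39 at day +1). Of 7 markers of T or NK cells all were tested, and 5 fell and 0 rose at day +60, with a median difference of -1.39, while 0 passed at the other days. CD8A (-1.57), CD5 (-1.49), CD3D (-1.44) and CD2 (-1.39) had the greatest falls. Their mean lay between -0.0042 and 0.55 at day -30 and between -1.63 and -0.50 at day +60. Of 6 basal or myoepithelial markers 2, 1, 0, 3, 0, 2 and 2 rose from day +1 to +240 in order, and KRT14 fell at day +180 (-1.40). The 3 at day +60 were MYH11 (1.11), OXTR (1.34) and ACTA2 (0.76). The others of the list did not pass at that day and did not go 1 way. Mean KRT14 was lower than at day -30 (1.92 against 2.86), as was mean KRT5 (3.09 against 3.198). Mean CNN1 was higher (2.86 against 1.78). The mean of the 6 lay between 2.09 and 2.71 at day -30 and between 2.73 and 3.47 at day +60. Of the secretory epithelium list 0 rose at day +1, 2 at day +15, 4 at day +60 and 2 at day +240, and 0 fell. The part of these cells in the changes of CRISP3, LTF and CD14 was not tested.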

How the data were processed

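RNA of 36 mammary biopsies (4 yaks at 9 days) was measured on single-colour Agilent cattle arrays. The scanner software was Agilent Feature Extraction 10.7.3.1, per the file headers, and the deposited scanner files hold intensity per spot and, as another unit, marks of 0 or 1 for spots well above background, out of line or saturated (0 spots saturated). Normalized log2 values were deposited as 1 table for 34997 of 43653 probes, with GeneSpring named in the series design. Each of its 36 columns equals 1 scanner file less a constant (100% of values within 0.001), and that constant is its 75th percentile to within 0.008. That file was deposited under another sample for all 36. Table values and the days of the table's sample titles were used, and marks came from the matched file.

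A probe was kept if well above background on at least 3 of 4 arrays of a day, and 1 probe stood for each symbol, the one with the highest mean. No array was left out or imputed. Symbols and positions are those of the files. Of the 4 symbols, 3 are also in the RefSeq yak gene table (CRISP3 is not among them by symbol). limma 3.58.1 (R 4.3.3, statmod 1.5.0) fitted day, with the animal as random block (consensus correlation 0.0531), as the series design states. Tests were two-sided, Benjamini-Hochberg adjusted over 20108 genes within each of 11 comparisons, at 0.05. Correlations used permutation tests (100000 resamples, or exact). The labels give the same animal number at each day: the mean r of deviations from day means was 0.15 within an animal and -0.051 between animals, and 32 of 36 arrays matched their own animal best. Each animal kept 1 position on the slides, so animal and position cannot be told apart. In simulated data of 20108 genes, for day +60 against day -30, 37 of 100 genes given a log2 change of 1 and 85 of 100 given 2 were recovered, with 5 unchanged genes called. The number of arrays limits the precision.

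The genes and lists were chosen with earlier results of these data known, so the calls describe these arrays and are no independent support. Named beside the 4 genes are their known partners, list genes that passed (at most 4 a direction, by size, for a comparison described) and the 3 most alike by r. A gene's whole course, and list genes given for not passing, were named after their values were seen. Each yak's samples came from separate biopsies. Alternatives were another background correction (normexp, offset 50), quantile normalization, scanner signals, no filter, mean of probes, no block, brightness as covariate, only the 8 arrays compared, without each yak and without low arrays. Leaving out 4 low arrays, the probe distance along LTF and leaving out 3 arrays from it were chosen after seeing the data. Further tools were Python 3.11.15 with scipy 1.17.1, pandas 2.3.3, numpy 2.4.6 and, for figures, matplotlib 3.10.9. Some genes of the lists are not reported here.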

Additional observations from a re-analysis of the deposited data

Results flagged for a closer look

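Among 36 groups of 4 arrays (4 genes at 9 days), 3 held an array whose gap to the nearest of the others was over Dixon's 95% critical share of the range, which chance alone passes in about 1 in 20 groups. LPO at day +30 was -2.43 in yak 3, with 2.94 to 3.91 in the others. LTF at day +30 was 4.07 in yak 4, with 4.81 to 4.92 in the others. CD14 at day +240 was 0.86 in yak 1, with 3.35 to 3.76 in the others. The LPO and CD14 arrays are among the 4 lactation arrays lowest in milk protein mRNA.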

How the results depend on the processing

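Of 668 values of the 4 genes under the alternatives, 589 kept direction and side of the threshold, 46 lost a call, 17 gained one and 16 changed sign, none of those 16 called. Of the 17 gains, 6 came with only the 8 arrays compared, 4 without the 4 lactation arrays lowest in milk protein mRNA and 1 with brightness. Not all of them are named above. Sign changes were LPO at day -15 with normexp (0.094), LTF at day -15 by the mean of its probes (-0.030), LTF at day +15 against day -30 with quantile normalization (-0.022), and with brightness CRISP3 at day -15 (-0.26) and, at day +15 against day +1, LPO (-2.09), LTF (0.092) and CD14 (-0.21). Without 1 yak each, values at day -15 ran from -0.75 to 0.44 for LPO, -0.11 to 0.16 for LTF, -0.68 to 0.40 for CRISP3 and -0.094 to 0.38 for CD14, and for LTF from -0.053 to 1.44 at day +15 against day -30, -0.84 to 0.11 at day +15 against day +1 and -0.057 to 0.94 at day +240 against day +60.

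Counts of genes called moved most. In the order day -15, +1, +15, +30, +60, +120, +180 and +240 against day -30, then +1 against -15, +15 against +1 and +240 against +60, they were 1, 1255, 3609, 1282, 5891, 756, 3509, 2803, 359, 64 and 438, and 8502 over all days. Without 1 yak each they ran, in that order, from 0 to 0, 148 to 869, 596 to 1577, 110 to 530, 2617 to 4238, 37 to 1375, 1277 to 3598, 239 to 2895, 30 to 161, 0 to 15 and 68 to 209, and from 2118 to 6326 over all days. For a count of 0 or 1 at day -15, 208 genes had an unadjusted limma p under 0.05. Counts over 1.5 times off the main one were, with brightness, 8, 2784, 706, 2368, 2786, 2000, 5470, 1834, 1307, 1 and 1023 in the same order. With normexp they were 0 at day -15, 588 at day +1, 2336 at day +15, 524 at day +30, 373 at day +120, 1352 at day +180 and 1131 at day +240, 129 against day -15 at day +1, 0 at day +15 against day +1, 10 at day +240 against day +60 and 4655 over all days. With only the 8 arrays compared they were 0 at day -15, 3576 at day +1, 378 at day +120, 2115 at day +180, 1742 at day +240, and 3432, 3182 and 0 in the last 3 comparisons. With quantile normalization they were 2134 at day +30, 1268 at day +120, and 671, 146 and 195 in the last 3. With the mean of all probes the count at day -15 was 0. Without the 2 arrays lowest in milk protein mRNA they were 2665 at day +120, 5563 at day +180, 666 at day +1 against day -15 and 400 at day +15 against day +1. Without 4 such arrays they were 2 at day -15, 2095 at day +1, 2087 at day +30, 3284 at day +120, 6098 at day +180, 5975 at day +240, 955 at day +1 against day -15 and 1633 at day +15 against day +1. The cause of these moves was not tested.

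The share of calls that were higher was 57.1% at day +15, 33.2% at day +30, 43.0% at day +60, 38.2% at day +180 and 49.2% at day +240. With normexp it was 70.7%, 43.9%, 87.1%, 54.3% and 61.8%, and at day +240 against day +60 it was 80.0% in place of 92.9%. With quantile normalization it was 46.8% at day +15, 39.6% in place of 28.7% at day +1 against day -15 and 39.7% in place of 56.2% at day +15 against day +1. With brightness it was 24.8% at day +15, 11.99% at day +60 and 18.9% at day +240, and with the mean of all probes 25.7% at day +180 and 37.6% at day +240. Without yak 2 it was 22.4% at day +180 and 20.8% at day +240, and without yak 3 it was 15.1% at day +240. At day +120 it was 28.3%, and 51.3% and 54.8% without the 2 and 4 arrays lowest in milk protein mRNA. Without the animal as replicate block the count at day +15 against day +1 was 22, and the pairing changed no call of the 4 genes other than that of CRISP3 at day +30 (5.57). The fit with the slide as a block was not run, since each slide holds 1 day. Scanner signals and the fit without a filter moved no count by over 1.5 times.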
